A study of Mus musculus with 16 samples.

Results

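The phase II conjugation enzymes were taken as the genes whose mouse symbol begins with Ugt1a, Ugt2a, Ugt2b or Ugt3a, with Sult and a digit, with Mgst, or with Gst, a class letter (a, k, m, o, p, t or z) and a digit. Of the 45513 genes counted, 66 met this rule after 6 pseudogenes were left out. They were followed in the colon of 8 mice that carried Atoh1(WT)CreERT2 and the R26RtdTom reporter, the genotype shared by every library. All received 1 mg of tamoxifen a day for 3 days according to the labels and to the animal methods of the study for this comparison, although its sequencing methods describe another schedule. Tamoxifen activates a Cre recombinase expressed from the Atoh1 locus, and recombined cells and their progeny keep the red reporter, so the label marks a history of Atoh1 expression and not one mature cell type. From each colon, live EpCAM+ epithelial cells were sorted into tdTom+ and tdTom- cells, and RNA of both populations was sequenced, giving 8 libraries per group. The methods of the study describe its mice as adults of both sexes on a C57BL/6 background.

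Phase II enzymes attach a polar group to drugs, dietary compounds, bilirubin, hormones and reactive lipids so that they dissolve and can be exported. UDP-glucuronosyltransferases (Ugt) add glucuronic acid inside the endoplasmic reticulum, cytosolic sulfotransferases (Sult) add sulfate from the donor PAPS, and glutathione S-transferases (cytosolic Gst, membrane-bound Mgst) add glutathione or use it to reduce peroxides. In the gut wall these enzymes are known as a first barrier to absorbed compounds.

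Total counts per library ranged from 16482530 to 24218367 in tdTom+ cells and from 18318172 to 45791503 in tdTom- cells; the deepest was the tdTom- library of mouse 4, and the next tdTom- library held 20668605 counts. Goblet and absorptive markers followed the study's terms for the populations, secretory for tdTom+ and absorptive for tdTom-. Those of enteroendocrine cells, also a secretory type, did not. Higher and lower are calls at the threshold defined below, which 25.5% of all genes tested passed in each direction. All 8 goblet genes examined, Muc2 among them, were higher in tdTom+ cells, with summed levels of 51122 to 106817 against 2261 to 8796 counts per 1000000 (CPM). All 8 absorptive colonocyte genes were lower, with summed levels of 585 to 875 against 6345 to 12193 CPM, and so were all 6 enteroendocrine genes (281 to 748 against 1364 to 3992 CPM). Of the latter, Gcg lost its call in 7 of 17 alternative fits. All 4 genes of deep crypt secretory cells were higher, but Spdef and Agr2 among them are also in the goblet list. Of 5 tuft genes tested 3 were lower (Trpm5 at -0.93, Sh2d6 at -1.11 and Dclk1 at -0.57 on the log2 scale, tdTom+ over tdTom-), with summed levels of 47.5 to 99.5 against 87.7 to 142 CPM. Avil (-0.42, called in 5 of 17 alternative fits) and Pou2f3 (0.05) passed in neither direction. Of 6 stem and proliferation genes 4 were lower, and their summed levels were 389 to 649 against 513 to 928 CPM. Axin2 and Smoc2 lost their calls in 6 and 3 of 17 alternative fits. Mki67 and Top2a, not called here, were called lower with the libraries of a mouse paired (adjusted p = 6.03e-05 and 9.34e-07, edgeR). Of 4 immune genes tested 2 were lower (Ptprc at -1.52 and Cd68 at -0.81), with 6.96 to 13.4 against 11.4 to 36.5 CPM summed over 7 genes. Lyz2 (-2.11, called in 5 of 16 alternative fits) and Itgam (-0.10) passed in neither direction. Of 2 stromal or endothelial genes tested 1 was lower, and 0 of 4 erythroid genes had enough counts to be tested. The share of counts from mitochondrial genes was 2.23 to 6.92% in tdTom+ and 3.74 to 9.97% in tdTom- libraries. The part of these shifts in the results that follow was not tested.

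Levels are CPM scaled by TMM library sizes, and changes are log2 fold changes of tdTom+ over tdTom- cells, called at a Benjamini-Hochberg adjusted p of 0.01 over all 15841 genes tested with edgeR's quasi-likelihood test. Of the 66 enzymes 42 had enough counts to be tested. In tdTom+ cells 29 were lower, 4 were higher (Gstm5, Gstt2, Gstz1 and Mgst2) and 9 passed in neither direction. With the libraries of a mouse paired in the fit 29 were lower and 5 higher, against 28.9% and 28.4% of all genes. In the fit without pairing, 25.5% of all genes tested were lower and 25.5% higher (51% in either direction), so the lower calls (69.0% of the enzymes) were more frequent than the background and the higher calls (9.52%) less frequent. The filter keeps genes counted in either population, and 24 enzymes were not tested. The median log2 fold change was -0.87 for the 42 enzymes and 0.0039 for all genes. The levels of tdTom+ and tdTom- libraries did not overlap for 24 of the lower enzymes (15.3% of all genes) and for 2 of the higher ones (15.2%), and 28 enzymes were lower in 8 of 8 mice (26% of all genes). A fall of more than 1 on the log2 scale was called for 20 enzymes, against 9.16% of all genes. In these bulk libraries, fewer cells of one type and less RNA per cell cannot be told apart.

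**Figure D1:**
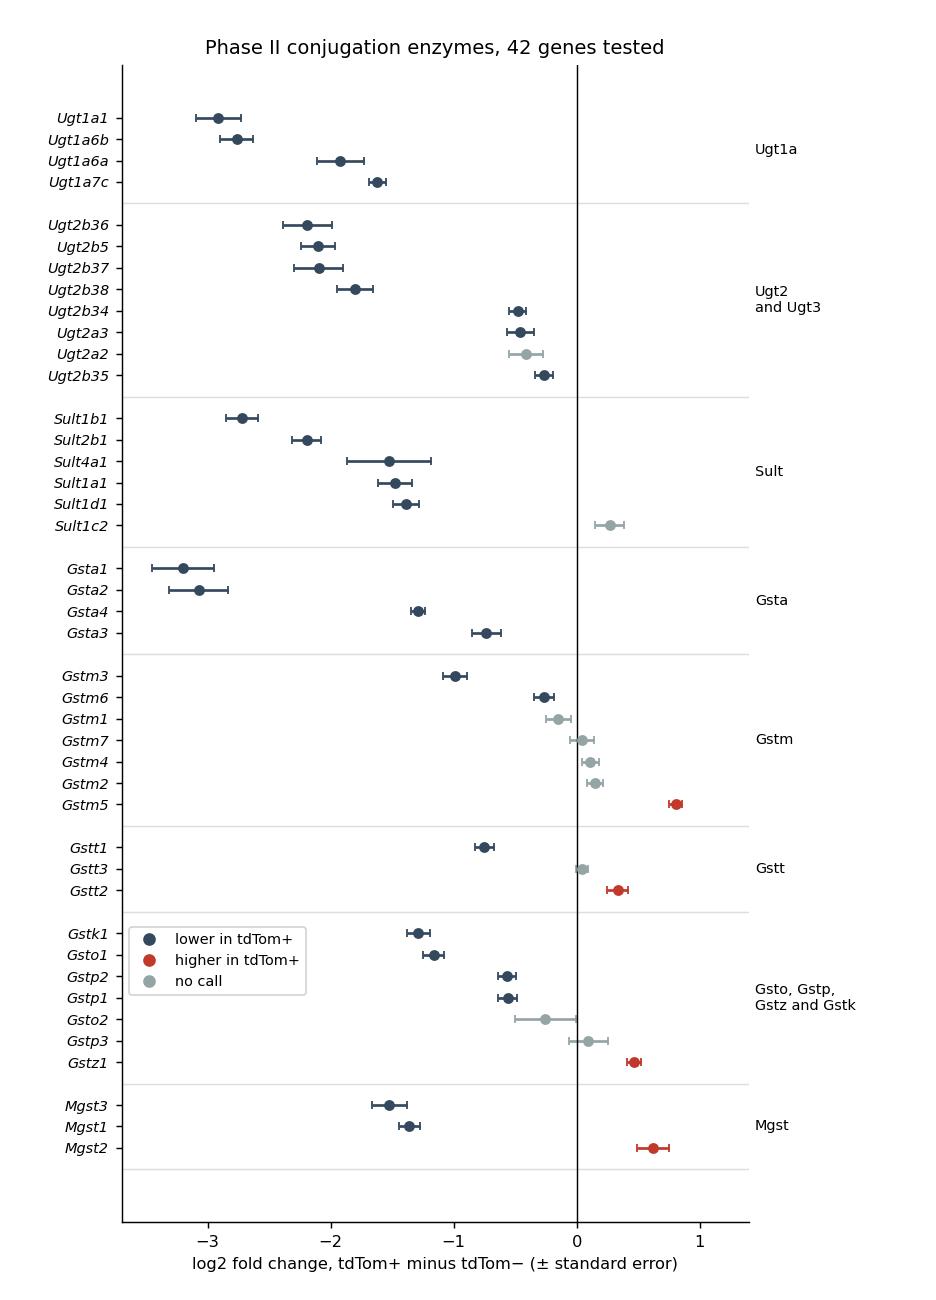
Each point is the log2 fold change (tdTom+ over tdTom-, n = 8 mice per group) of 1 of the 42 tested enzymes with its standard error, grouped by family and coloured by call. The Ugt1a, Gsta and most Sult points lie far left of 0, while the Gstm and Gstt points lie on both sides of it.

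Added over all 66 genes, the enzymes held 2182 to 2632 CPM (median 2251) in tdTom+ and 3670 to 4548 CPM (median 3899) in tdTom- cells. Within a mouse the tdTom- sum was 1.64 to 1.85 times the tdTom+ sum. The families did not share this ratio. The median ratio was 3.37 for Ugt1a, 2.98 for Gsta and 2.77 for Sult. It was 1.82 for Mgst, 1.70 for Gsto, Gstp, Gstz and Gstk together, and 1.41 for Ugt2 with Ugt3. For Gstm and Gstt it was 1.06 and 1.03, with ratios on both sides of 1 among the mice (0.939 to 1.24 and 0.870 to 1.09). Most of the Ugt2 with Ugt3 sum came from Ugt2b34, with a mean of 517 of 640 CPM in tdTom- and 371 of 441 CPM in tdTom+ cells. The median log2 fold change of the 8 tested genes of that family was -1.14.

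**Figure D2:**
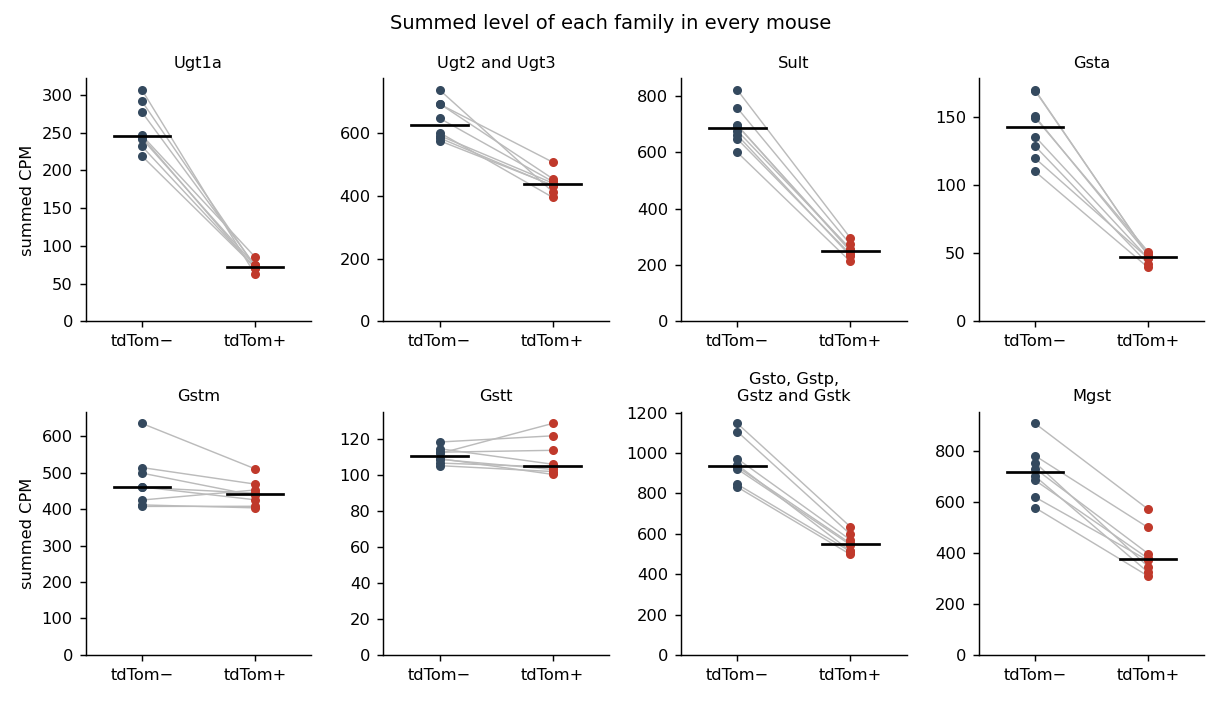
Summed CPM of each family (linear axis from 0) in the tdTom- and tdTom+ library of every mouse, joined by a line, with the median of 8 as a bar. The 2 populations are apart for Ugt1a, Ugt2 and Ugt3, Sult, Gsta and Gsto/p/z/k, are close to each other for Mgst, and overlap for Gstm and Gstt.

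Promoter sequences of 58 of the 66 genes, from RefSeq on GRCm38.p6, were searched on both strands for motif letters associated with 4 regulators of these genes. Each window runs from 250 bases before to 50 bases after the start of transcription. The antioxidant response letters TGACNNNGC were found in 4 of the 58 genes (Gsta3, Gstm5, Gstm7 and Mgst1; 6.90%) and in 13.99% of 27025 genes. The dioxin response core GCGTG stood in 12 of the 58 (20.7%) and in 35.2% of all genes. It overlaps TGACNNNGC in Gstm5. The HNF4 letters CAAAGTCCA were found in Sult1b1 alone and the CDX2 letters TTTATGG in Gstm6 alone, against 0.555% and 3.21% of all genes. A match is a description of letters and not a bound site.

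The promoters of 3 enzymes are printed to show where the searched letters stand in genes that fell and in one that rose. Sult1b1 (chr5:87536173-87536472, minus strand) shows the HNF4 letters in capitals, which lie after the start of transcription. Gstm5 (chr3:107895604-107895903, plus strand) and Mgst1 (chr6:138140277-138140576, plus strand) show the antioxidant response letters in capitals, on the opposite strand in Mgst1, and moved in opposite directions. All are written 5′ to 3′ on the strand of the gene.
Sult1b1: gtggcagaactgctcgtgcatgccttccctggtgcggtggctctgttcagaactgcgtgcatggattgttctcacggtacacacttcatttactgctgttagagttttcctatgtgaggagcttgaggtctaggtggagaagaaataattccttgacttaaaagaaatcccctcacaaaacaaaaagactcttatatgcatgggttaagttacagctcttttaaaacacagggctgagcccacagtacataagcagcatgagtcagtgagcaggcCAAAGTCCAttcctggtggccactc
Gstm5: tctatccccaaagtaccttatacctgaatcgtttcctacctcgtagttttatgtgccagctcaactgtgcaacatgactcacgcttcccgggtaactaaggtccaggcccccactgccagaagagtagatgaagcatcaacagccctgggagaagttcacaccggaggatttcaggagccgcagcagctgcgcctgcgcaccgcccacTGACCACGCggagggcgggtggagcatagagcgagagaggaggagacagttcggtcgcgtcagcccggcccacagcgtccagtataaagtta
Mgst1: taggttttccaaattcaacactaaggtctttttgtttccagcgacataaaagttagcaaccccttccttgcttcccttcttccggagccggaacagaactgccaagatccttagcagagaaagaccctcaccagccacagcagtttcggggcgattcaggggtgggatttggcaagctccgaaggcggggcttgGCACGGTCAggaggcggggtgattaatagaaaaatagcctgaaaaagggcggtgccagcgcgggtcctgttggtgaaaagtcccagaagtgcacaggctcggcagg

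The Ugt1a genes are first exons strung along chromosome 1 (88055388 to 88220002, GRCm38) that splice to the same last exons. All 9 overlap one another in those exons, and the authors' counter gave no gene a read that lay in exons of several, so the values come from the bases each gene does not share (39.4 to 49.7% of the exon bases of the 4 tested). All 4 tested were lower in tdTom+ cells, against 25.5% of all genes. Ugt1a1, which glucuronidates bilirubin, ran from 29.3 through a median of 39.2 to 60.1 CPM in tdTom- cells. In tdTom+ cells its lowest, median and highest levels were 3.46, 5.02 and 8.01 CPM. The groups did not overlap, and the log2 fold change was -2.91 (SE 0.18, adjusted p = 1.43e-11, edgeR). Ugt1a6b, which conjugates small phenols, was at 11.1, 13.03 and 18.2 CPM (lowest, median, highest) in tdTom- and at 1.58, 1.85 and 3.15 CPM in tdTom+ cells. It was likewise lower in every mouse, by -2.77 on the log2 scale (SE 0.14, adjusted p = 3.96e-13, edgeR). Its near copy Ugt1a6a was at -1.92 (SE 0.19). Since 79.8% of the 50-base stretches of Ugt1a6b occur in another gene too, counts of both were also summed, giving -2.50 (SE 0.11). Ugt1a7c had the highest level per kb of the family, at 171, 194 and 221 CPM in tdTom- and 54.0, 64.4 and 73.3 CPM in tdTom+ cells. Its log2 fold change was the smallest of the 4, -1.62 (SE 0.07, adjusted p = 3.06e-14, edgeR). Ugt1a7c alone is annotated up to 88220002, while the others end at 88218997 to 88219004. Reads from that tail count for Ugt1a7c whichever Ugt1a RNA they came from. Their part in its level and its change was not tested. In 8 of 8 mice Ugt1a1 fell further than Ugt1a7c, by 1.29 ± 0.34 on the log2 scale (SD; such differences between enzymes are descriptions without a test, since the enzymes were named for their changes). Ugt1a1 and Ugt1a6b differed in their fall by -0.13 ± 0.37 (SD), with 4 mice on each side. The other 5 were not tested: Ugt1a10 had 0 counts, Ugt1a5, Ugt1a8 and Ugt1a9 had 20 to 37 counts over 16 libraries, and the 23 counts of Ugt1a2 all came from tdTom- libraries.

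The Ugt2 genes lie on chromosome 5 within 702 kb (86889767 to 87591594) together with Sult1b1, Sult1d1 and Sult1e1. Of 10 tested enzymes in that stretch 9 were lower, against 25.5% of all genes, and Ugt2a2 passed in neither direction. The Ugt2b enzymes conjugate steroids, bile acids and many drugs. They fell into a group with large changes and a group with small ones. Ugt2b5 was at 29.0, 41.7 and 49.98 CPM (lowest, median, highest) in tdTom- and at 5.87, 9.53 and 12.2 CPM in tdTom+ cells, with a log2 fold change of -2.10 (SE 0.14, adjusted p = 2.63e-11, edgeR). Ugt2b36 was at 3.72, 5.25 and 6.23 against 0.619, 0.944 and 1.89 CPM, and changed by -2.19 (SE 0.20, adjusted p = 5.11e-09, edgeR). Neither overlapped between the groups. Ugt2b37 changed by -2.10. Ugt2b38 changed by -1.80, a smaller fall than that of Ugt2b5 by 0.33 ± 0.30 (SD) in 8 of 8 mice. Both share sequence with Ugt2b5, 41.7% of whose 50-base stretches recur elsewhere. Summed, the last 2 with Ugt2b5 gave -2.06 (SE 0.13). Ugt2b34 was the Ugt2 gene with the most RNA per kb, at 463, 506 and 591 CPM in tdTom- and 335, 371 and 419 CPM in tdTom+ cells. The groups were separate here too, but the change was -0.48 (SE 0.07, adjusted p = 4.43e-06, edgeR), smaller than that of Ugt2b5 by 1.62 ± 0.24 (SD) in 8 of 8 mice. Ugt2a3 was at -0.46 (adjusted p = 0.00125, edgeR). Ugt2b35 (-0.26, adjusted p = 0.00419, edgeR) lost its call when mouse 1, 2, 4, 6, 7 or 8 was left out (adjusted p up to 0.0366). Ugt2a2, with 93.6% of its 50-base stretches in other genes, was at -0.41 (adjusted p = 0.0145, edgeR) and passed only without mouse 1 among the mice left out in turn (-0.47, adjusted p = 0.00961, edgeR). Ugt2b1 had 56 counts in all, 28 in each population, Ugt3a1 had 31 and Ugt3a2 had 0.

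Sulfotransferases were mostly silent. Of 21 genes 12 had no count in any library, among them all 8 Sult2a genes on chromosome 7, Sult1e1, Sult3a1, Sult3a2 and Sult6b1. A count of 0 allows up to 3 counts, or 0.0655 to 0.182 CPM in a library by total counts without TMM scaling, counting error only. Sult1c1 had 16 counts, all in tdTom- libraries, and Sult5a1 and Sult6b2 had 1 and 3. Of 6 tested, 5 were lower in tdTom+ cells, against 25.5% of all genes. Sult1b1, which sulfates phenols and thyroid hormones, was at 108, 156 and 176 CPM (lowest, median, highest) in tdTom- and at 17.0, 22.6 and 31.0 CPM in tdTom+ cells. These ranges were far apart, and the change was -2.72 (SE 0.13, adjusted p = 2.18e-13, edgeR). Sult2b1, which sulfates cholesterol and other hydroxysteroids, was at 21.7, 30.9 and 38.2 against 5.57, 6.92 and 9.06 CPM, a change of -2.20 (SE 0.12, adjusted p = 1.43e-12, edgeR). Sult1a1, a phenol sulfotransferase on chromosome 7 (126672865 to 126676432), had the highest level per kb, at 166, 217 and 331 CPM in tdTom- and 65.5, 76.0 and 107 CPM in tdTom+ cells. It was lower in every mouse, by -1.48 (SE 0.14, adjusted p = 6.25e-09, edgeR), and both populations had their highest value in mouse 4. Sult1b1 fell further than Sult1a1 by 1.27 ± 0.24 (SD) in 8 of 8 mice. Sult1d1, which sulfates catecholamines, changed by -1.38 (SE 0.11). Sult4a1, a form known from brain, changed by -1.53 (SE 0.34) on 178 counts. Sult1c2 passed in neither direction, at 0.27 (adjusted p = 0.0557, edgeR), with 6 mice higher and 2 lower.

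**Figure D3:**
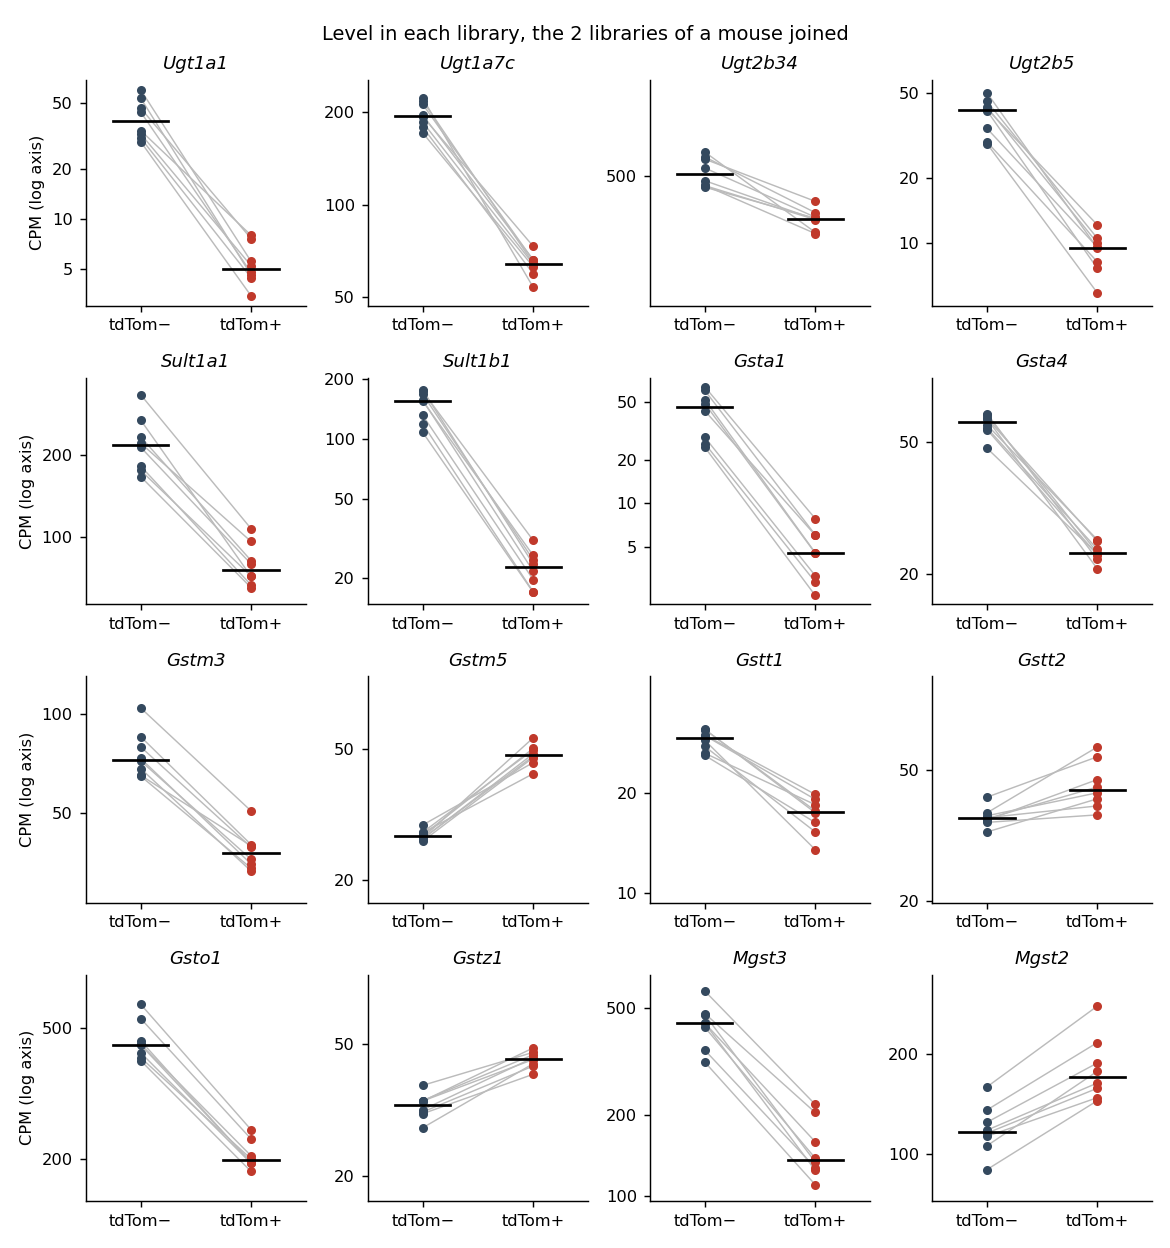
CPM (log axis) of 16 enzymes in the tdTom- and tdTom+ library of every mouse, the libraries of a mouse joined and the median of 8 shown as a bar. Lines fall steeply for Ugt1a1, Sult1b1 and Gsta1, fall gently for Ugt2b34, and rise for Gstm5, Gstt2, Gstz1 and Mgst2.

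The alpha class of glutathione S-transferases held the largest change of all 42 enzymes. Gsta1, which conjugates electrophiles and reduces lipid peroxides, was at 24.3, 46.1 and 63.6 CPM (lowest, median, highest) in tdTom- and at 2.31, 4.54 and 7.83 CPM in tdTom+ cells. The groups were apart, with a log2 fold change of -3.20 (SE 0.25, adjusted p = 6.39e-10, edgeR). Gsta2 was at 7.50, 13.7 and 18.3 against 0.450, 1.60 and 2.099 CPM and changed by -3.07 (SE 0.24, adjusted p = 5.05e-10, edgeR). The counts of both are uncertain. Of the 50-base stretches of Gsta1, 90.5% recur elsewhere, 75.7% in Gm3776, which is not among the 66 genes and was left out of the sum, and 36.0% of those of Gsta2 occur in Gsta1. The summed counts of Gsta1 and Gsta2 gave -3.17 (SE 0.24, adjusted p = 4.39e-10, edgeR). Both were lowest in mouse 1 and highest in mouse 6 in each population. Over the 8 mice, log2 CPM of Gsta1 in tdTom+ cells correlated with that in tdTom- cells (Pearson r = 0.93, exact permutation p = 0.00201; Spearman rho = 0.93, exact p = 0.00223; r = 0.84 without the 2 mice farthest from the median), but its p adjusted over 15841 genes was 0.106. None of the 42 enzymes passed 0.05 after this adjustment (0.101% of all genes did). An unadjusted exact permutation p under 0.05 was found for 16 of the 42 enzymes and for 2730 of all 15841 genes. The median r was 0.54, against 0.35 over all genes. The series of mice hold too few animals for r within them. Gsta4, specialised for the lipid peroxidation product 4-hydroxynonenal, shares no 50-base stretch with another gene. It had the highest level per kb of its class, at 48.0, 57.6 and 61.0 CPM in tdTom- and 20.7, 23.03 and 25.3 CPM in tdTom+ cells, a change of -1.29 (SE 0.06, adjusted p = 8.7e-14, edgeR). Gsta1 fell further than Gsta4 by 1.94 ± 0.29 (SD) in 8 of 8 mice, whereas Gsta1 and Gsta2 differed by -0.10 ± 0.41 (SD). Gsta3, the member of the class on chromosome 1, changed by -0.73 (SE 0.12) with overlapping groups.

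The 7 mu class genes lie within 149 kb of chromosome 3 (107895821 to 108044894), and all 7 were tested with a median change of 0.04. Gstm3 was lower, at 64.7, 72.5 and 104 CPM (lowest, median, highest) in tdTom- and 33.4, 37.8 and 50.8 CPM in tdTom+ cells (-0.99, SE 0.10, adjusted p = 2.86e-08, edgeR). Its groups were separate, and both were highest in mouse 4. Gstm5, at the other end of the behaviour of the cluster, was at 26.3, 27.1 and 29.4 CPM in tdTom- and 42.0, 47.8 and 53.9 CPM in tdTom+ cells. It was higher in every mouse without overlap, by 0.81 (SE 0.05, adjusted p = 2.25e-11, edgeR). The changes of Gstm3 and Gstm5 differed by 1.79 ± 0.17 (SD, 8 of 8 mice). Gstm1, which detoxifies many electrophilic compounds and had the highest level per kb of the class, was at 200, 235 and 343 CPM in tdTom- and 189, 219 and 271 CPM in tdTom+ cells. The groups overlapped, and the change was -0.15 (95% confidence interval -0.37 to 0.07, adjusted p = 0.218, edgeR). It was lower in 7 of 8 mice, with an adjusted p of 0.0486 in the edgeR fit that pairs the libraries of a mouse. Gstm6 was called lower, at 14.5, 16.2 and 20.5 against 10.9, 14.0 and 15.9 CPM. The groups overlapped and the call (-0.27, SE 0.08, adjusted p = 0.00947, edgeR) was lost without any 1 of the 8 mice (adjusted p 0.0111 to 0.0489). Gstm2 (0.15, adjusted p = 0.0523, edgeR) passed in the fit that pairs the libraries of a mouse (0.16, adjusted p = 0.00889 by edgeR) and without mouse 4 (0.21, adjusted p = 0.00153, edgeR). Gstm4 (0.11) and Gstm7 (0.04) passed in neither direction.

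The theta class on chromosome 10 (75774115 to 75834881) also moved in both directions. Gstt1, known for acting on small halogenated compounds, was at 26.1, 29.4 and 31.3 CPM (lowest, median, highest) in tdTom- and 13.5, 17.6 and 19.9 CPM in tdTom+ cells, without overlap (-0.75, SE 0.07, adjusted p = 2.35e-08, edgeR). Gstt2 was at 32.4, 35.7 and 41.3 against 36.5, 43.5 and 58.6 CPM. Its groups overlapped, but it was higher in tdTom+ cells of 8 of 8 mice (0.33, SE 0.09, adjusted p = 0.00207, edgeR). The changes of Gstt1 and Gstt2 differed by 1.07 ± 0.28 (SD, 8 of 8 mice). Gstt3 was at 0.04 (95% confidence interval -0.06 to 0.15), and Gstt4 had 3 counts in all.

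Among the smaller classes, Gsto1, an omega class enzyme that reduces dehydroascorbate and mixed disulfides, was at 397, 444 and 588 CPM (lowest, median, highest) in tdTom- and 183, 198 and 245 CPM in tdTom+ cells. The ranges were apart, with a change of -1.16 (SE 0.09, adjusted p = 2.05e-10, edgeR). Gsto2, which starts just after it on chromosome 19, had 176 counts over all libraries and a change of -0.25 that did not pass. Gstk1, the kappa class enzyme of mitochondria and peroxisomes, was at 50.6, 54.6 and 74.5 against 21.2, 23.3 and 28.6 CPM, a change of -1.29 (SE 0.09, adjusted p = 1.18e-10, edgeR). Gstp1, the pi class enzyme, had the highest level per kb of these, at 192, 225 and 257 CPM in tdTom- and 127, 156 and 174 CPM in tdTom+ cells (-0.56, SE 0.08, adjusted p = 2.08e-06, edgeR). Its neighbour Gstp2 changed by -0.57, within 0.01 ± 0.04 (SD) of Gstp1. The pair shares sequence (33.7% and 54.3% of their 50-base stretches recur), so their reads may have been divided between them, and summed they gave -0.56 (SE 0.08). Gstp3 passed in neither direction (0.10). Gstz1, which isomerises maleylacetoacetate in tyrosine breakdown, was the only one of the 7 called higher, at 28.0, 32.7 and 37.6 CPM in tdTom- and 40.6, 45.3 and 48.8 CPM in tdTom+ cells. The groups did not overlap (0.47, SE 0.06, adjusted p = 6.36e-07, edgeR).

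Of the membrane-bound enzymes, Mgst3, a glutathione-dependent peroxidase, was at 315, 440 and 580 CPM (lowest, median, highest) in tdTom- and 110, 136 and 219 CPM in tdTom+ cells (-1.52, SE 0.14, adjusted p = 9.38e-09, edgeR). Mgst1, which protects membranes from lipid peroxides, was at 145, 166 and 172 against 52.1, 58.7 and 77.8 CPM (-1.36, SE 0.09, adjusted p = 1.65e-11, edgeR). Both were without overlap. Mgst2, which can make leukotriene C4, went the other way, at 89.6, 117 and 159 CPM in tdTom- and 145, 171 and 280 CPM in tdTom+ cells. Its groups overlapped, yet it was higher in tdTom+ cells of 8 of 8 mice (0.62, SE 0.13, adjusted p = 3.04e-04, edgeR), and its change differed from that of Mgst3 by 2.15 ± 0.16 (SD). Mgst2 and Mgst3 were each lowest in mouse 4 and highest in mouse 2 in both populations.

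Per kb of exon that could be counted, the order of the enzymes differed between the populations. In tdTom- cells Mgst3 stood first at 399 CPM per kb, followed by Gstp1 (298), Gsto1 (234), Gstp2 (233), Gstm1 (166) and Sult1a1 (148). In tdTom+ cells Gstp1 led at 202 CPM per kb, followed by Gstp2 (157), Gstm1 (150), Mgst3 (139) and Gsto1 (105), with Sult1a1 eighth at 53.3. As a share of the length-scaled sum of all enzymes, the Gstm class was 12.6% in tdTom- and 20.9% in tdTom+ cells, Ugt1a was 6.47% and 2.96%, and Sult was 13.4% and 9.08%. Several neighbours in these orders did not differ by more than the spread between mice, so their ranks are not settled. In tdTom- cells these were Gsto1 with Gstp2 (234 and 233) and Gstm1 with Sult1a1 (166 and 148). In tdTom+ cells they were Gstp2 with Gstm1, Gstm1 with Mgst3, and Mgst3 with Gsto1.

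**Figure D4:**
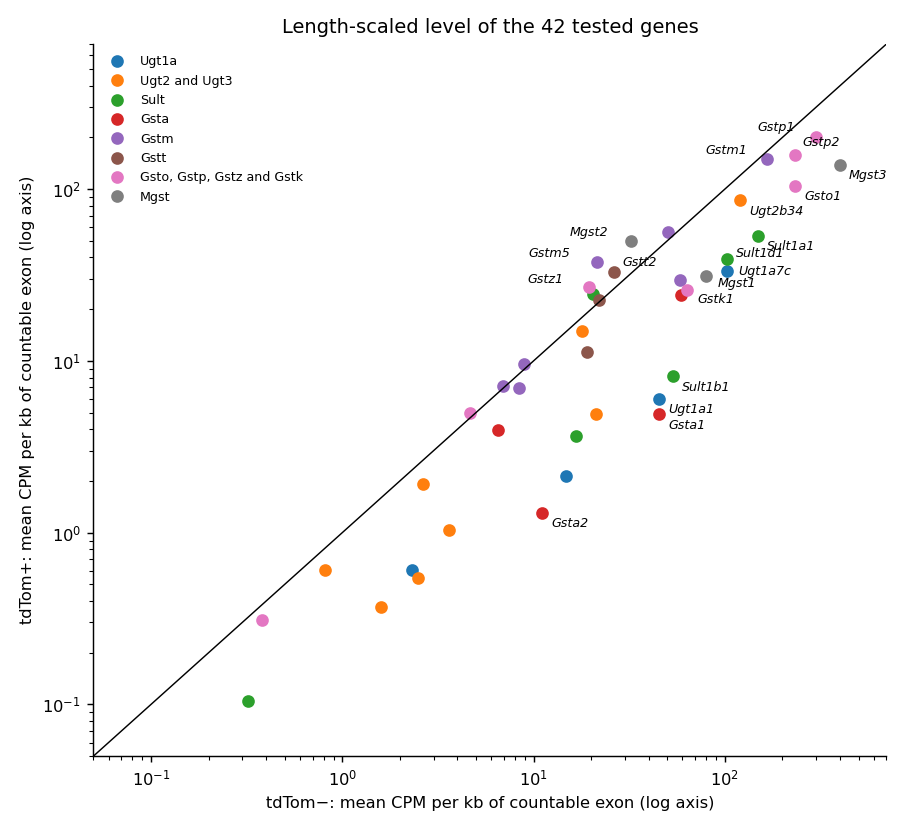
Mean CPM per kb of countable exon in tdTom- cells (x, log axis) and tdTom+ cells (y, log axis) of the 42 tested enzymes, coloured by family, with the line of equal level. Most points lie below the line, Gstm1 just below it. Gstm5, Gstt2, Gstz1 and Mgst2 lie above it, and so do Gstm2, Gstm4, Gstm7, Gstt3, Gstp3 and Sult1c2, which passed in neither direction.

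The genes that supply the conjugating enzymes were examined by fixed lists. For comparison, 25.5% of all genes tested were called lower in tdTom+ cells and 25.5% higher. For UDP-glucuronate, the sugar donor of Ugt enzymes, 1 of 6 genes tested was higher and 3 were lower (median -0.54). Ugdh, which oxidises UDP-glucose to UDP-glucuronate, was at 493 to 822 CPM in tdTom- and 71.8 to 86.9 CPM in tdTom+ cells (-2.96, SE 0.10, adjusted p = 2.17e-15, edgeR). Slc35d1, which carries UDP-glucuronate into the endoplasmic reticulum, changed by -2.32 and Pgm1 by -0.77. Ugp2, which makes the UDP-glucose used for mucin sugars as well, was higher (0.51, SE 0.08). For PAPS, the sulfate donor, 4 of 7 genes were higher and 3 lower (median 0.37). The 3 largest rises were in Slc35b2 (1.20) and Slc35b3 (0.90), which bring PAPS into the Golgi, and in Impad1 (1.11), which clears the by-product there. The falls were in the sulfate carrier Slc26a2 (-1.82), which is also one of the absorptive markers, in the PAPS synthase Papss2 (-1.18) and in Bpnt1 (-0.78), which clears the by-product in the cytosol.

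Of 16 genes of glutathione supply and turnover 4 were higher and 9 lower (median -0.78), against 25.5% of all genes in each direction. The largest falls were in Ggt1 (-5.34), which starts glutathione breakdown at the cell surface, Slc3a1 (-4.31), a subunit of a cystine carrier, and the dipeptidase Dpep1 (-3.81). The rises were led by the aminopeptidase Anpep (1.87), by Chac1 (1.67), which degrades glutathione in the cytosol, and by the cystine importer Slc7a11 (1.63). The enzymes of glutathione synthesis, named here after their values were seen, were all lower, with changes of -1.15 for Gclc, -0.98 for Gclm and -1.38 for Gss. Of 11 genes tested in a list of other conjugating enzymes 2 were higher and 6 lower (median -0.48). Ugt8a (-3.11), Hpgds (-1.22) and Alox5ap (-0.84) were lowest, and Ptges (1.76) and Hnmt (0.53) were higher. The groups of Hnmt overlapped, and its call (adjusted p = 0.00954, edgeR) was lost in 12 of 17 alternatives, including 7 of the 8 in which 1 mouse was left out (all but mouse 7). Hpgds and Alox5ap are also known from tuft and immune cells. Of the markers tested, 3 of 5 tuft and 2 of 4 immune genes were lower too (Trpm5 by -0.93 and Ptprc by -1.52). Others passed in neither direction, among them Pou2f3 (0.05) and Itgam (-0.10). The part of these cells in the changes of Hpgds and Alox5ap was not tested. Alox5ap is counted in the list of other conjugating enzymes but is not one itself. Among 13 hydrolases 9 were lower and 1, the epoxide hydrolase Ephx1 (0.70), was higher (median -1.40). Those that fell were the carboxylesterases, led by Ces2c (-4.74), Ces2a (-4.65) and Ces2b (-4.17), and Ephx2. The enzymes that remove glucuronide and sulfate groups, Gusb (0.17), Arsa (-0.12) and Arsb (0.15), passed in neither direction. Gusb did pass in the fit that pairs the libraries of a mouse (0.17, adjusted p = 0.00638, edgeR).

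Of 17 regulators tested 11 were lower and 1, Arnt (0.15), was higher (median -0.65), against 25.5% of all genes in each direction. The groups of Arnt overlapped, and its call (adjusted p = 0.0076, edgeR) was lost in 8 of 17 alternatives, among them those without mouse 1, 6, 7 or 8. The largest changes were in the nuclear receptors Nr1i3 (-4.13), Ppara (-1.65) and Nr1h4 (-1.43). Nr1i3 was at 1.37 to 4.53 CPM in tdTom- and at 0.0791 to 0.256 CPM in tdTom+ cells. The floor of 3 counts was 0.124 to 0.182 CPM in tdTom+ libraries, by total counts without the TMM scaling of the levels. For the factors whose letters were searched in the promoters, Hnf4a was at -1.11, Nfe2l2 at -0.88, Cdx2 at -0.65 and Ahr at -0.27, whose call (adjusted p = 0.00471, edgeR) was lost in 8 of 17 alternatives. Of 17 other genes known as NFE2L2 targets 15 were lower and 0 higher by edgeR (median -0.79), with Akr1b8 (-2.58), Srxn1 (-2.01) and Nqo1 (-1.92) lowest.

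**Figure D5:**
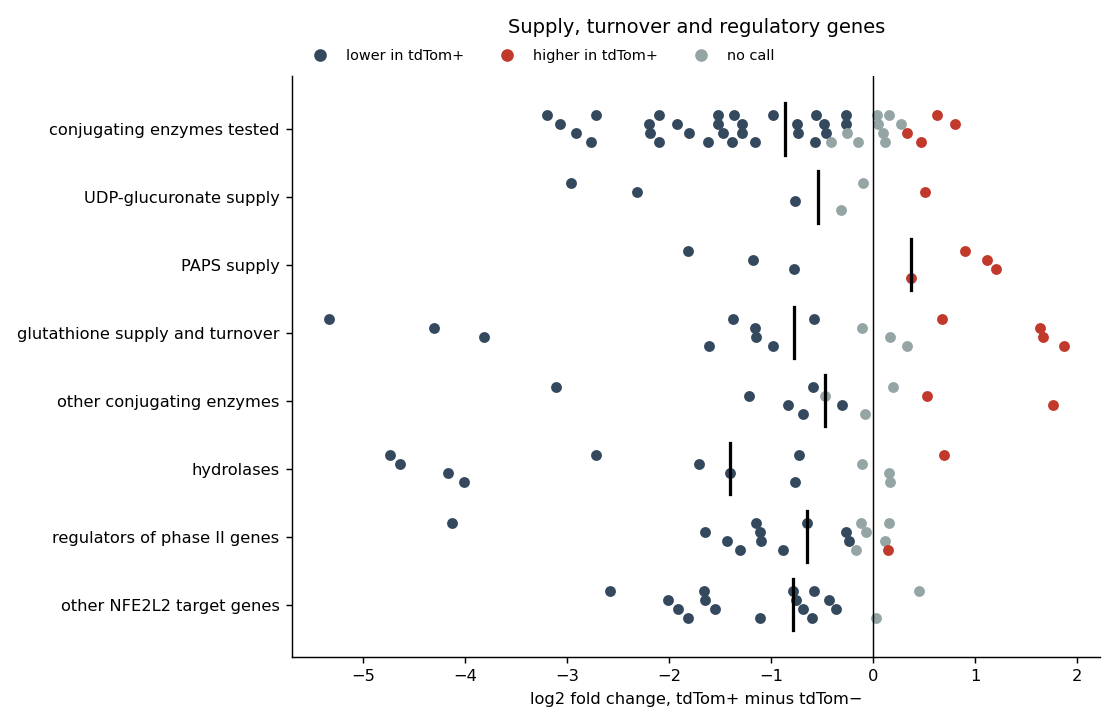
Log2 fold change (tdTom+ over tdTom-) of the 42 enzymes and of every tested gene of 7 lists, coloured by call, with the median of each list as a bar. Only the PAPS list has its median right of 0, and the NFE2L2 target list has 0 genes called higher.

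With mice 1 to 3 alone 24 enzymes were lower and 5 higher, against 16% and 15.9% of all genes. With mice 5 to 8 alone 26 were lower and 4 higher, against 22.3% and 21.4% of all genes. The mouse numbers fall into these series, whose origin was not given, and mouse 4 has a number of its own.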

How the data were processed

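RNA of EpCAM+ tdTom+ and EpCAM+ tdTom- colon cells of 8 mice was sequenced. Libraries were stranded and read from a single end. The authors mapped the reads on GRCm38.p3 by TopHat2 2.1.1 and deposited raw counts per gene and sample from featureCounts 1.5.0-p1 (per the file headers; the labels give Subread 1.5.2), on exons, reverse strand, primary alignments, with reads that lay in exons of several genes left unassigned. Counts of near copies are therefore uncertain. The authors' own test used DESeq2 1.14.1. Symbols came from GENCODE M21 for 44671 of 45513 genes, and promoters from RefSeq on GRCm38.p6.

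The quasi-likelihood test of edgeR 4.0.16 (R 4.3.3) was run on genes kept by filterByExpr, after TMM and with no mouse term, with the threshold at an adjusted p of 0.01. Standard errors were the absolute log2 fold change over the root of F. Unless said otherwise, standard errors, intervals and p-values are from this fit without pairing. With the mouse as a block the standard error was 0.076 against 0.25 for Gsta1 and 0.054 against 0.13 for Sult1b1. For Gstm5 it was 0.053 against 0.052. Alternatives were the mouse as a block, DESeq2 1.42.0, limma-voom (limma 3.58.1), RLE and upper-quartile normalization, no filter, at least 10 counts in every sample, an adjusted p of 0.05, each mouse left out, and mice 1 to 3 or 5 to 8 alone. Summing near copies, and the correlations over mice (log2 CPM with 0.5 added to each count), were added after values were seen. The labels give the 2 libraries of a mouse 1 number, so the numbers pair them. Deviations from group means correlated across genes at 0.21 to 0.40 within a mouse and at most 0.16 between mice. No replicates within a group agreed within sampling noise. Enzymes named with their levels are, per family, the 2 with the largest change in each direction and at least 100 counts, the highest per kb, and those opposite to most of the family. In the lists up to 3 genes per direction are named. The enzymes, lists and tests were chosen with earlier results of these data known. The fits were tested on simulated data. Floors of 3 counts are over total counts without TMM scaling and cover counting error only. Intervals of log2 fold changes include the spread between samples. Summaries used Python 3.11.15, numpy 2.4.6, pandas 2.3.3, scipy 1.17.1 and matplotlib 3.10.9.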

Additional observations from a re-analysis of the deposited data

Results flagged for a closer look

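In 5 of 84 groups (an enzyme in 1 population) a single library stood apart from the other 7 by Dixon's criterion at 95%. Chance flags about 1 in 20 groups, here 4.2. Sult4a1 was at 0.000 CPM in the tdTom+ library of mouse 7, the others being at 0.153 to 0.524. Gsta2 was at 0.450 CPM in the tdTom+ library of mouse 1 (others 1.096 to 2.099). Gsta4 was at 48.0 CPM in the tdTom- library of mouse 7 (others 54.6 to 61.0). Gstm3 was at 50.8 CPM in the tdTom+ library of mouse 4 (others 33.4 to 40.1). Gstp3 was at 1.84 CPM in the tdTom- library of mouse 2 (others 2.94 to 4.04).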

How the results depend on the processing

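Over all alternatives tried, 4 to 5 enzymes were called higher and 24 to 30 lower, against 4 and 29. Leaving out 1 mouse at a time gave 4 to 5 and 26 to 28. In the main fit 25.5% of all genes were called in each direction. Among the alternatives this share was counted only with the mouse as a block and with mice 1 to 3 or 5 to 8 alone. The other counts stand without it. With the mouse as a block, to use the pairing of libraries, 5 were higher and 29 lower (28.4% and 28.9% of all genes); Gstm2 (0.16) gained its call and no other call of an enzyme changed. Of 757 values of the 42 enzymes 727 kept their direction and side of the threshold, 22 lost the call, in 5 genes (Ugt2a3, Ugt2b34, Ugt2b35, Gsta3 and Gstm6), and 5 gained it, in 3 genes (Ugt2a2, Sult1c2 and Gstm2). Signs turned in 3 values, all of enzymes without a call: Gstm7 without mouse 2 (-0.0111; -0.0111 to 0.121 over the 8 mice left out), and Gstt3 (-0.0237) and Gstp3 (-0.0343) with mice 5 to 8 alone; the cause was not tested. In the lists, calls close to the threshold varied: 1 or 2 of the other conjugating enzymes, 0 to 2 hydrolases and 0 to 2 regulators were called higher. Calls of Hnmt, Arnt and Ahr were lost in 12, 8 and 8 of 17 alternatives. The 24 enzymes that were not tested had 0 to 56 counts over all libraries, and what deeper libraries would show of them was not tested.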
